A study of Drosophila melanogaster with 10 samples.

Results

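The genes of dopamine synthesis, vesicle loading and reuptake were followed through TRAP-seq libraries of fly dopaminergic (DA) neurons. The 6 genes were chosen by name, namely *ple*, *Ddc*, *Vmat*, *DAT*, *Pu* and *Hn*, and all 6 were found among 17716 genes in the table of the 3 transgenic groups and in the table that holds whole brain. In TRAP-seq, ribosomes that carry a GFP-tagged L10a protein are pulled down and their mRNAs are sequenced. The profile is meant to be of mRNAs on ribosomes in the cells where the driver *dTH-GAL4* is active, though markers of other cells were present too (below). TRAP control (3 libraries, 500 heads each) carried *dTH-GAL4* and *UAS-GFP::RpL10A*, PARIS C571A (3 libraries, 500 heads each) carried in addition human PARIS with the C571A change, described as transcriptionally inactive, and PARIS WT (3 libraries, 1500 heads each) carried human wild type PARIS. The strain of these groups is labelled w1118XdTH-Gal4, and whole brain, 1 library of total mRNA without pulldown, is labelled wild type in w1118. The methods describe this library as made from whole heads, so whole brain is used here only as its label. Its count column is headed dPARIS_Whole_Brain, while its label gives wild type. Heads of males and females were pooled, each library is labelled as 30 days of age, and the methods place the collection of flies 2 days after eclosion. The question was whether the genes that make a DA neuron dopaminergic were enriched by TRAP and whether they differed with PARIS.

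Dopamine is made from tyrosine by tyrosine hydroxylase, the product of *ple* and the rate-limiting step, and by DOPA decarboxylase, the product of *Ddc*, which serotonin neurons share. Tyrosine itself can be made from phenylalanine by phenylalanine hydroxylase, the product of *Hn*, and both hydroxylases need the cofactor tetrahydrobiopterin, whose synthesis starts with GTP cyclohydrolase I, the product of *Pu*. The product of *Vmat* loads monoamines into vesicles, and that of *DAT* takes dopamine back up from the synapse. In flies *ple*, *Ddc* and *Pu* also serve the epidermis, where dopamine hardens and darkens the cuticle, and *Pu* and *Hn* also serve the pterin pigments of the eye.

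The driver borrows regulatory DNA of *ple*, so the gene that heads the pathway is also the one whose regulation chose the cells profiled. The 150 bases before the annotated start are therefore shown for *ple* and, to compare with it, for *Ddc* and *Hn*, in lower case with matches to 4 motifs in capitals. The motifs, searched on both strands, were the TATA box as TATAAA, the variants spelled TTTAAA and then TATTTAA (no letters shared by 2 matches here), and a CRE core spelled ACGTCA. They were read from the RefSeq genome of Release 6, the assembly of the annotation, and the last 3 motifs were chosen after the sequences were seen.
ple, chr3L:6719526-6719675, minus strand: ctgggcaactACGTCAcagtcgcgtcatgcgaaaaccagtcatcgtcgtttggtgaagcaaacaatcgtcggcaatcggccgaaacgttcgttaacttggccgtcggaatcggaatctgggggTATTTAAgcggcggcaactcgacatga
Ddc, chr2L:19120307-19120456, minus strand: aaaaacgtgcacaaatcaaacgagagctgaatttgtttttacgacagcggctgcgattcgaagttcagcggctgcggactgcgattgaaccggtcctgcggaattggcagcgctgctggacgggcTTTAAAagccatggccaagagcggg
Hn, chr3L:7760303-7760452, plus strand: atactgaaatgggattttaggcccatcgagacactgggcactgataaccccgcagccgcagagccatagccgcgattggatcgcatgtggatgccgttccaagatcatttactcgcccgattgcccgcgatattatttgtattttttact
The *ple* window held TATTTAA 27 bases before the start and ACGTCA 140 bases before it, and the *Ddc* window held TTTAAA 25 bases before the start, while the *Hn* window held none of the 4 motifs. Of the members whose windows are not shown, *DAT* held TATAAA 28 bases before the start and *Vmat* 68 bases before it, while *Pu* held none of the 4. Of 13945 protein-coding genes, 29.2% had TATAAA in a window of this length, 23.0% TTTAAA, 13.0% TATTTAA and 3.26% ACGTCA. The windows of *ple*, *Ddc* and *Hn* were 53.3%, 54.0% and 49.3% G and C, against a median of 38.7% over all genes. A match of letters is a description of the window and not a site of binding.

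Total counts on genes ranged from 8819116 to 50102982 over the 9 TRAP libraries and were 11619907 in whole brain. The rRNA share was 15.4% to 43.3% in TRAP libraries and 3.24% in whole brain. Before scaling, and with zeros included, the 6 genes together took between 0.0360% (PARIS WT replicate 1) and 0.0837% (PARIS C571A replicate 2) of the TRAP counts. The TMM factors, which rescale library totals, were 0.749 and 1.70 in these libraries, the lowest and the highest of the TRAP libraries. Levels are given as CPM, the count relative to the library total after TMM scaling. The CPM of TRAP control is scaled once with the other TRAP groups and once with whole brain, so its values differ between these 2 comparisons. Some abundant genes had a count of 0 in single libraries. Of 2744 genes with a mean of at least 500 counts over the TRAP libraries, 130 (4.74%) were listed at 0 in at least 1 of them. *ple* and *DAT* were among these, so a 0 is given here as a listed value and not as absence of the mRNA.

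TRAP control was first set against whole brain, to see which of the genes were higher after the pulldown. The groups also differ in genotype, so pulldown and genotype cannot be told apart in these ratios. *Vmat* and *Ddc* were higher than in whole brain in every TRAP control replicate, *Pu* and *Hn* were lower in every replicate, and *ple* and *DAT* were higher wherever they had counts. *Vmat* had 266, 276 and 324 CPM in TRAP control replicates 1, 2 and 3 and 72.6 CPM in whole brain, a mean log2 ratio of 1.98 ± 0.15 (SD, n = 3), or 3.95-fold. *Ddc* had 162, 128 and 179 CPM against 76.9 CPM, which gave a log2 ratio averaging 1.01 ± 0.24 (SD, n = 3), or 2.01-fold. The members of the pathway that act on vesicles and on DOPA thus lay above whole brain by more than the spread between TRAP replicates.

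*ple* had counts of 953, 0 and 476 in TRAP control and 400 in whole brain. In the replicates with counts its log2 ratios were 1.65 and 1.16. *DAT* had counts of 1552, 0 and 0, against 308 in whole brain, with a log2 ratio of 2.73 in replicate 1. Both defining markers of DA neurons were thus above whole brain in some TRAP control libraries and listed at 0 in others, and no mean is given for them. *Hn*, expressed also in fat body and in pigment cells of the eye, went the other way, with 43.6, 47.8 and 53.7 CPM against 230 CPM, which gave a log2 ratio averaging −2.25 ± 0.15 (SD, n = 3), or 4.77-fold lower. *Pu* had 112, 97.8 and 72.9 CPM against 137 CPM, and its mean log2 ratio was −0.56 ± 0.32 (SD, n = 3).

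Over 12361 genes the median log2 ratio was −0.37, and 31.1% of genes were above whole brain in every replicate and 38.9% below. Of the 6 members, 2 were above and 2 below in every replicate, so the count is near the background. At a distance of at least 1 log2 unit in every replicate, which 12.4% of genes reached upward and 18% downward, *Vmat* was above and *Hn* below. *Vmat* lay at the 88.3 percentile of all genes by its mean log2 ratio, *Ddc* at the 76.7 percentile, *Pu* at the 45.7 and *Hn* at the 18.6 percentile. There was 1 whole brain library, so no p-value is given. With library sizes alone the median of all genes shifted to −1.46, and *Ddc*, at −0.11, then lay below whole brain. In total mRNA of many cells, fewer cells of a type and less RNA per cell cannot be told apart.

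**Figure D1:**
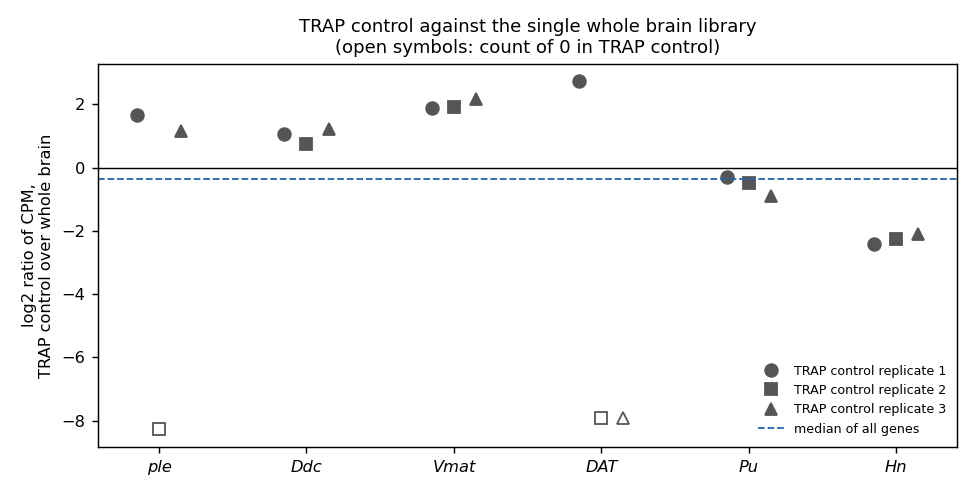
Log2 ratio of CPM of each TRAP control replicate (circle, square and triangle for replicates 1, 2 and 3) over the single whole brain library, for the 6 genes, with open symbols where the TRAP control count was 0. *Vmat* and *Ddc* lie above 0 in all 3 replicates and *Pu* and *Hn* below, while *ple* and *DAT* lie above 0 only where they had counts, and the dashed line is the median of all genes at −0.37.

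Markers of other cells were present beside the DA markers. Summed CPM of 5 glia genes was between 828 and 887 in TRAP control and 947 in whole brain, and that of 5 photoreceptor genes between 11322 and 12806 against 11442. The sum of 5 general neuron genes was between 1106 and 1528 against 444, and that of 5 genes of neurons with other transmitters between 466 and 614 against 356. Fat body genes (*Yp1*, *Yp2*, *Lsp2*, *fit* and *apolpp*) summed to between 11954 and 13514 against 28092, and 5 muscle genes to between 341 and 401 against 1994. For 5 epidermis and cuticle genes the sums were between 19.6 and 31.9 against 16.7. The fall of fat body and muscle markers went with that of *Hn*, and the rise of both lists of neuron markers with that of *Vmat* and *Ddc*, and their part in these ratios was not tested.

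Levels of different genes can be compared per kilobase of exon. In TRAP control *Ddc* came first, with a mean of 45.8 CPM per kilobase, followed by *Pu* with 35.9, *Vmat* with 29.0 and *Hn* with 18.8. *DAT* had 26.5 CPM per kilobase in the 1 library with counts, and *ple* a mean of 11.2 over the 2 libraries with counts. In PARIS C571A the order was *Ddc* with 54.0, *Pu* with 48.4, *Hn* with 21.5, *Vmat* with 18.8 and *ple* with 18.1. In PARIS WT it was *Ddc* with 55.3, *Pu* with 38.8, *Hn* with 30.8 and *Vmat* with 22.5, and *ple* had 12.3 in the libraries with counts. By these means *Vmat* stood above *Hn* in TRAP control and below it in both PARIS groups, though in PARIS C571A the 2 differed by less than the SD of *Hn*. Exon length is that of all annotated exons together, which is longest for *Vmat* (8134 bases) and may understate its level.

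**Figure D2:**
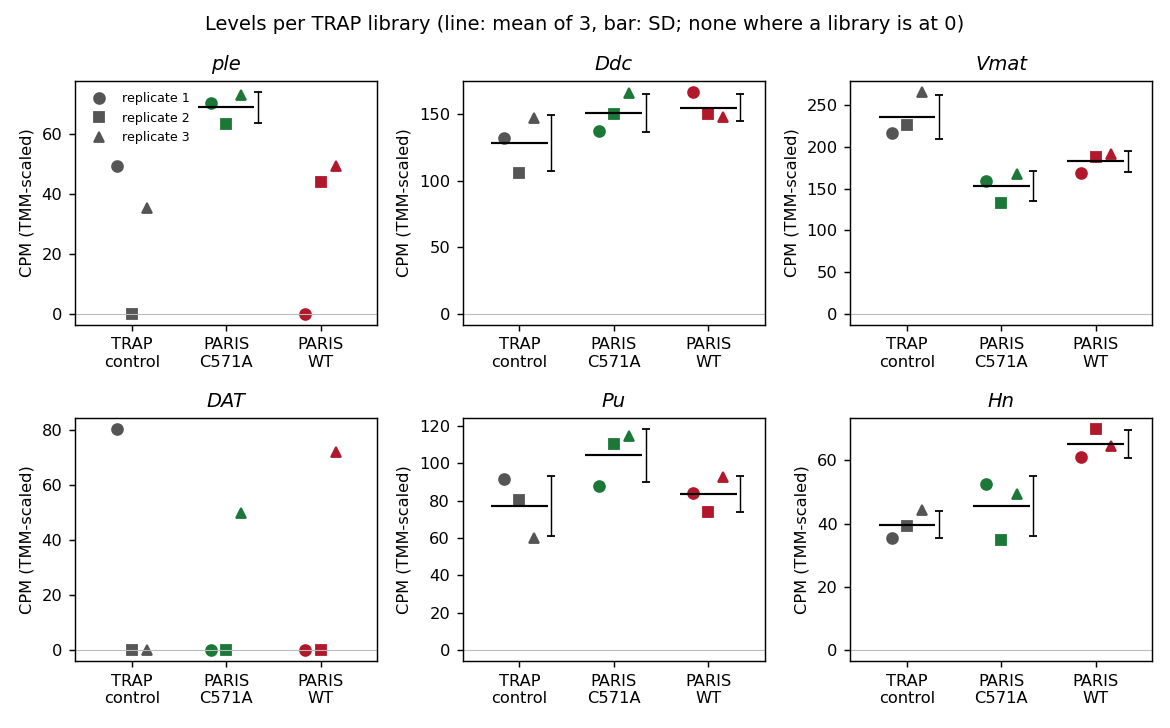
TMM-scaled CPM of the 6 genes in each TRAP library (circle, square and triangle for replicates 1, 2 and 3), with the mean and SD of 3 libraries where no library is at 0. *Vmat* is highest in TRAP control and *Hn* in PARIS WT without overlap with the other groups, and *ple* and *DAT* have libraries at 0.

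The 3 transgenic groups were then compared to see whether the genes differed with PARIS. PARIS WT libraries came from 1500 heads and those of both other groups from 500. In comparisons with PARIS WT, genotype and number of heads thus cannot be told apart. None of the 6 genes passed an adjusted p-value of 0.05 in any comparison by edgeR. DESeq2, the tool of the paper's gene-level tests, called *Vmat* and *Hn* between PARIS WT and TRAP control, where it called 9.33% of all genes. Between PARIS C571A and TRAP control it called *Vmat* (6.22% of all genes), and between the PARIS groups no member. The smallest p-values by edgeR were those of *Vmat*, which had its lowest values in PARIS C571A and its highest in TRAP control, and of *Hn*, which had its highest values in PARIS WT. *ple* had larger fitted differences, with SEs above 1 log2 unit, since it was listed at 0 in 2 libraries. Over all 3 groups, the unadjusted p-value of edgeR's F-test was 0.00324 for *Vmat* and 0.00784 for *Hn* (adjusted p = 0.152 and 0.218), and those of the other 4 genes lay between 0.104 and 0.976. Of 10524 genes tested over the 3 groups, 0.751% passed the adjusted threshold and 11.8% an unadjusted p-value of 0.05.

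The vesicular transporter *Vmat* (FBgn0260964), on 2R from 13513132 to 13534251 on the minus strand, had counts in every library. It had 217, 226 and 266 CPM in TRAP control replicates 1, 2 and 3, with 159, 133 and 167 CPM in PARIS C571A, and PARIS WT had 169, 188 and 191 CPM. Each PARIS C571A library thus lay below each PARIS WT library, and these below each TRAP control library. Means were 236 ± 26.2 CPM in TRAP control, 153 ± 18.0 CPM in PARIS C571A, and for PARIS WT 183 ± 12.2 CPM (SD, n = 3 each). The log2 fold change was −0.63 in PARIS C571A against TRAP control (SE 0.14, edgeR adjusted p = 0.199) and −0.37 in PARIS WT (SE 0.12, edgeR adjusted p = 0.282), or 1.54-fold and 1.29-fold lower. DESeq2 called both, with adjusted p = 0.000206 and 0.021. PARIS WT against PARIS C571A gave 0.30 (SE 0.12, edgeR adjusted p = 0.588). These comparisons share libraries, so their directions are not independent of each other.

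Markers of other cells moved with the groups. Summed CPM of 5 genes of other neurons was between 383 and 504 in TRAP control, 653 and 690 in PARIS C571A and 547 and 600 in PARIS WT, in the reverse order of *Vmat*. That of 5 glia genes was between 676 and 729, 894 and 1018, and 781 and 894, in the same groups. The sum of 5 general neuron genes overlapped between TRAP control (909 to 1247) and PARIS WT (1037 to 1336) and was 1266 to 1475 in PARIS C571A. Muscle genes summed to between 279 and 327 in TRAP control, 367 and 464 in PARIS C571A and 327 and 413 in PARIS WT. For fat body genes the ranges in this order were 9802 to 11107, 10800 to 12036 and 10360 to 10702, and for photoreceptor genes 9306 to 10501, 10159 to 10711 and 8020 to 9609. PARIS C571A thus lay above PARIS WT without overlap in both of these, and above TRAP control in muscle genes. Sums of epidermis and cuticle genes were at most 47.1 and overlapped between all groups. Of the defining markers, *repo* of glia was listed at 0 in TRAP control replicate 1, *knk* and *serp* of the epidermis in 3 libraries each, *Lsp2* of fat body and *Act88F* of muscle in 7 each, and none of the neuron or photoreceptor markers was at 0. The part of these differences in the levels of the 6 genes was not tested.

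*ple* (FBgn0005626), on 3L from 6713356 to 6719525, makes tyrosine hydroxylase, and no annotated protein-coding gene overlaps it, with the nearest 4356 bases away. Its counts were 953, 0 and 476 in TRAP control, 1774, 1323 and 2764 in PARIS C571A and 0, 569 and 1017 in PARIS WT. In CPM, PARIS C571A had 70.4, 63.3 and 73.3, above the 49.5 and 35.4 of the TRAP control libraries with counts and the 43.9 and 49.3 of those of PARIS WT. TRAP control replicate 2 and PARIS WT replicate 1 were listed at 0 although both had counts of *Ddc* and *Vmat* near those of their groups. With these libraries in the fit, the log2 fold change of PARIS C571A against TRAP control was 1.29 (SE 1.49, edgeR adjusted p = 0.904), that of PARIS WT against TRAP control 0.13 (SE 2.12, edgeR adjusted p = 0.997) and that of PARIS WT against PARIS C571A −1.11 (SE 1.46, edgeR adjusted p = 0.963). Without TRAP control replicate 2 the first was 0.70 (edgeR adjusted p = 0.407), and without PARIS WT replicate 1 the last was −0.53 (edgeR adjusted p = 0.462). Without both libraries, a choice made after seeing the data, PARIS WT against TRAP control gave 0.12 (edgeR adjusted p = 0.971). The order of *ple* was thus highest in PARIS C571A in each of these settings, and TRAP control and PARIS WT could not be ordered.

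*Ddc* (FBgn0000422), on 2L from 19116483 to 19120306, varied least between groups. It had 132, 105 and 147 CPM in TRAP control, 137, 150 and 166 CPM in PARIS C571A, and PARIS WT had 166, 150 and 147 CPM. The log2 fold changes against TRAP control were 0.24 in PARIS C571A (SE 0.16, edgeR adjusted p = 0.752) and 0.27 in PARIS WT (SE 0.15, edgeR adjusted p = 0.627). Between the PARIS groups it was 0.07 (SE 0.11, edgeR adjusted p = 0.977). The gene *CG10561* overlaps *Ddc* by 88 bases on the opposite strand, and it held between 277 and 832 counts in the TRAP libraries. The library kit does not mark strand, so reads in that stretch cannot be assigned to either gene. *Vmat* holds *CG13330*, *CG13331* and *CG13332* on its opposite strand, with at most 162 counts in a TRAP library, and *CG4286*, with at most 82, overlaps *Pu* by 883 bases.

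*Pu* (FBgn0003162), on 2R from 21175315 to 21182608, makes the first enzyme of cofactor synthesis. It had 91.4, 80.2 and 59.9 CPM in TRAP control, 87.8, 110 and 114 CPM in PARIS C571A, and PARIS WT had 84.3, 73.6 and 92.7 CPM. The groups overlapped in each comparison. The log2 fold change against TRAP control was 0.43 in PARIS C571A (SE 0.20, edgeR adjusted p = 0.566) and 0.11 in PARIS WT (SE 0.19, edgeR adjusted p = 0.949), and it was −0.28 between PARIS WT and PARIS C571A (SE 0.15, edgeR adjusted p = 0.734). Without TRAP control replicate 3, the lowest library, PARIS WT lay at −0.039 against TRAP control.

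*Hn* (FBgn0001208), on 3L from 7760453 to 7763166, makes phenylalanine hydroxylase. It had 35.6, 39.2 and 44.1 CPM in TRAP control, 52.4, 34.9 and 49.4 CPM in PARIS C571A, and PARIS WT had 61.2, 69.9 and 64.5 CPM. Each PARIS WT library lay above each library of both other groups, which overlapped. PARIS WT also differed from both in heads per library, and the part of this was not tested. The log2 fold change of PARIS WT against TRAP control was 0.71 (SE 0.14, edgeR unadjusted p = 0.00186 and adjusted p = 0.106), or 1.64-fold, and DESeq2 called it with an adjusted p = 9.64e-05. It was 0.56 against PARIS C571A (SE 0.18, edgeR adjusted p = 0.456 and DESeq2 adjusted p = 0.0595), and 0.20 for PARIS C571A against TRAP control (SE 0.20, edgeR adjusted p = 0.875). Among members with counts in every library, *Hn* had the lowest ratio of TRAP control to whole brain. The whole brain library held 4798 counts of it against 593 to 807 in TRAP control.

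*DAT* (FBgn0034136), on 2R from 16558567 to 16565238, was listed at 0 in 6 of the 9 TRAP libraries in the table of the 3 groups. Its counts there were 1552, 0 and 0 in TRAP control, 0, 0 and 1882 in PARIS C571A and 0, 0 and 1488 in PARIS WT. In the table of the 2 PARIS groups alone, the same libraries held 1198, 826 and 1882 counts in PARIS C571A and 1241, 718 and 1488 in PARIS WT. The values agreed where the table of the 3 groups had counts and differed where it had 0. The other 5 genes had the same counts in both tables in all 6 libraries. Of 17691 genes in both tables, 761 (4.3%) differed in at least 1 of these libraries. Zeros occurred on both sides: of 2662 values that differed, 1155 were 0 in the table of the 3 groups and 805 were 0 in that of the PARIS groups. The tables of TRAP control with PARIS C571A, with PARIS WT and with whole brain held the same counts of *DAT*, zeros included, as the table of the 3 groups. The TRAP control libraries are not in the table of the PARIS groups, so the 0 in TRAP control replicates 2 and 3 cannot be set against a count there. Only 1 other gene with at least 100 counts in a library had the same libraries at 0 as *DAT*.

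**Figure D3:**
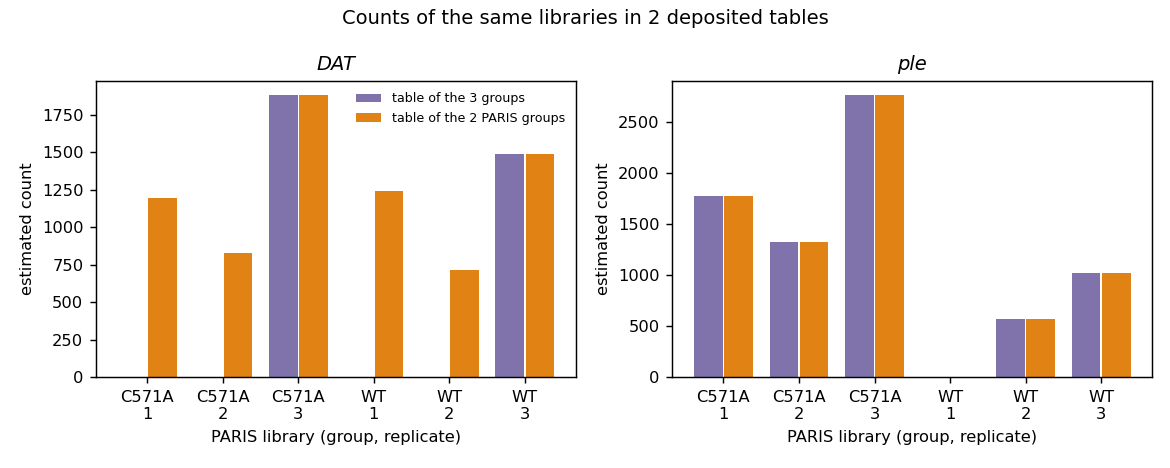
Estimated counts of *DAT* and *ple* in the 6 PARIS libraries, with bars from 0 for the table of the 3 groups and for the table of the 2 PARIS groups. *DAT* is at 0 in 4 libraries in the first table and between 718 and 1241 in the second, whereas *ple* has the same counts in both, with 0 in PARIS WT replicate 1.

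Scaled within the table of the PARIS groups, *DAT* had 46.6, 38.8 and 48.5 CPM in PARIS C571A, and PARIS WT had 66.9, 56.1 and 71.9 CPM, without overlap. The means were 44.6 ± 5.17 and 65.0 ± 8.09 CPM (SD, n = 3 each), and the log2 fold change of PARIS WT against PARIS C571A was 0.54 (SE 0.15, edgeR unadjusted p = 0.0105 and adjusted p = 0.346). Among 9460 genes tested there, 0.0529% passed the adjusted threshold and 8.46% an unadjusted p-value of 0.05. In the table of the 3 groups *DAT* did not pass the expression filter in the pairwise comparisons, and an exact two-sided permutation test of its log2 CPM gave p = 1 in each of the 3 comparisons, where the smallest p that 3 against 3 libraries allow is 0.1. Each group had 2 libraries listed at 0 there, so the zeros set this p-value and no conclusion is drawn from it. In the table of the 3 groups, *Hn* and *Vmat* were higher in PARIS WT than in PARIS C571A without overlap. *ple* was lower without overlap, including its library at 0. The 2 PARIS groups did not overlap for 17.1% of all genes tested there. This share was not computed for the table of the PARIS groups, from which the values of *DAT* without overlap come.

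Counted over the genes tested, 5 of the 6 members passed the filter in each pairwise comparison, and 0 of 5 were called by edgeR. Between PARIS WT and TRAP control 0.712% of 9697 genes were called, between PARIS C571A and TRAP control 0.17% of 9986, and between PARIS WT and PARIS C571A 0.0213% of 9403, so a count of 0 among 5 genes is near the background. At an unadjusted p-value of 0.05, 2 of 5 members passed between PARIS WT and TRAP control (*Vmat* lower and *Hn* higher), against 11.6% of all genes. Between PARIS C571A and TRAP control 1 of 5 passed (*Vmat* lower), against 9.83%, and between PARIS WT and PARIS C571A 2 of 5 (*Vmat* and *Hn* higher), against 8.3%. DESeq2 called 2, 1 and 0 members in these comparisons, where it called 9.33%, 6.22% and 4.06% of all genes. Libraries did not overlap for 3 of 5 members between PARIS WT and TRAP control (*Ddc* and *Hn* higher, *Vmat* lower), against 22% of all genes. This held for 2 of 5 between PARIS C571A and TRAP control (*ple* higher, *Vmat* lower), against 20.5%, and for 3 of 5 between PARIS WT and PARIS C571A (*Vmat* and *Hn* higher, *ple* lower), against 17.1%. The median log2 fold change of the members was 0.13, 0.24 and 0.07, beside −0.02, 0.01 and −0.02 over all genes tested.

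Ratios of 2 genes in the same library do not depend on the scaling between libraries. They were computed for every pair of *Ddc*, *Vmat*, *Pu* and *Hn* after the levels had been seen, and those over *Vmat* of *Hn* and *Ddc* are given as a description. The count of *Hn* over that of *Vmat* was 0.164, 0.174 and 0.166 in TRAP control, 0.330, 0.263 and 0.295 in PARIS C571A and 0.362, 0.371 and 0.337 in PARIS WT. No library of 1 group overlapped another, and the ratio in whole brain was 3.17. Of the pairs computed, only this one was without overlap in every comparison of groups, and it joins the 2 members with the smallest p-values. The SD of *Hn* over *Vmat* in the TRAP control replicates was 0.00503 around a mean of 0.168, although these libraries differed in depth and rRNA share. The count of *Ddc* over that of *Vmat* was 0.609, 0.466 and 0.553 in TRAP control, 0.865, 1.13 and 0.992 in PARIS C571A and 0.986, 0.797 and 0.771 in PARIS WT. Both PARIS groups lay above TRAP control and overlapped each other. The divisor *Vmat* had lower CPM in every library of both PARIS groups than in TRAP control, a difference that edgeR did not call. Many other genes taken over it were higher there too. Taken over *Vmat* in this way, 23.8% of genes were higher in PARIS WT and 36.2% in PARIS C571A than in TRAP control without overlap, and 2.34% were higher in PARIS WT than in PARIS C571A.

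**Figure D4:**
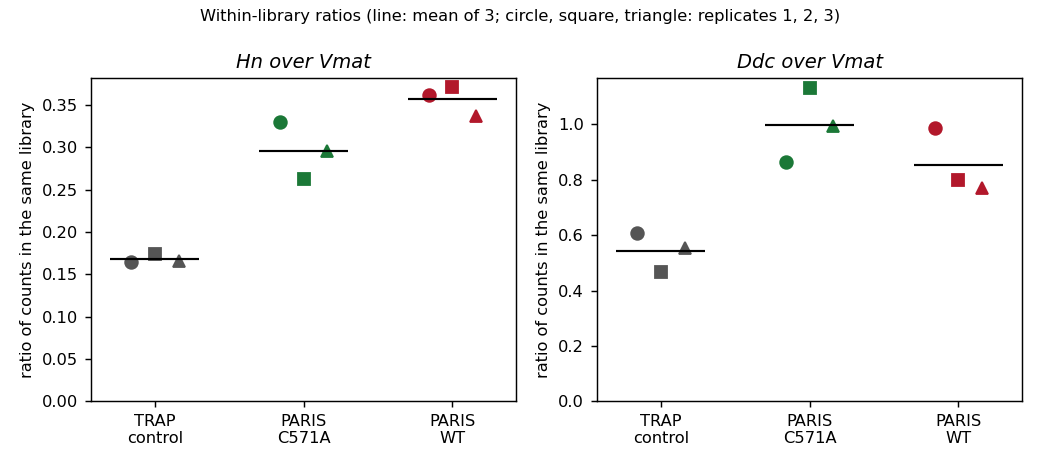
Counts of *Hn* and of *Ddc* divided by the count of *Vmat* in the same library, by group, with the mean of 3 libraries as a line and circle, square and triangle for replicates 1, 2 and 3. *Hn* over *Vmat* is between 0.164 and 0.174 in TRAP control, between 0.263 and 0.330 in PARIS C571A and between 0.337 and 0.371 in PARIS WT.

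Of the other genes of the pathway, those of the cofactor and its regulation did not pass the adjusted threshold in any comparison (0 of 5 tested by edgeR in each). The list holds *pr*, which makes the next enzyme after *Pu*, *Sptr*, sepiapterin reductase, *Pcd* and *Dhpr*, which regenerate the cofactor, and *Catsup*, a negative regulator of tyrosine hydroxylase. Their median log2 fold change was −0.15 in PARIS WT and −0.03 in PARIS C571A against TRAP control. *Pcd* had the smallest unadjusted p, at 0.0346 for PARIS WT against TRAP control, where it averaged 17.0 ± 1.42 CPM in PARIS WT and 10.1 ± 2.55 CPM in TRAP control (SD, n = 3 each, edgeR adjusted p = 0.355). Against whole brain, *pr* was higher in every TRAP control replicate, at a log2 ratio averaging 1.33 ± 0.41 (SD, n = 3), and the other 4 were lower in every replicate. Of all genes, 31.1% were higher and 38.9% lower in every replicate. *pr* thus lay with *Vmat* and *Ddc*, and *Catsup*, at −1.87 ± 0.14 (SD, n = 3), nearer to *Hn*.

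Among genes that inactivate dopamine or lead it to pigment, *e* and *b* passed in the table of the 3 groups, and the call of *b* rests on listed zeros. *e* couples β-alanine to dopamine, and its mean was 9.27 ± 1.44 CPM in TRAP control, 43.4 ± 3.68 CPM in PARIS C571A, and for PARIS WT 31.8 ± 3.00 CPM (SD, n = 3 each). It rose with a log2 fold change of 2.23 in PARIS C571A (SE 0.20, edgeR adjusted p = 0.0221) and 1.78 in PARIS WT (SE 0.21, edgeR adjusted p = 0.0282). *b*, which makes β-alanine, had counts of 272, 358 and 367 in TRAP control and was listed at 0 in all 6 PARIS libraries there (edgeR adjusted p = 0.0361 in PARIS C571A and 0.0241 in PARIS WT). In the table of the PARIS groups the same libraries held 1968, 1420 and 2835 counts of *b* in PARIS C571A and 716, 638 and 899 in PARIS WT, so no fold against TRAP control is given and no fall of *b* can be read from these calls. Scaled within that table, its log2 fold change was −0.71 in PARIS WT against PARIS C571A (SE 0.14, edgeR adjusted p = 0.254). Of the 24 genes of all lists matched in the tables, only *DAT* and *b* differed between tables. Of 6 genes of this list, 4 were tested against TRAP control, and *t* and *stw* did not pass. *y* was at 0 in all TRAP libraries, and *speck* was not matched to an identifier in the tables. All 5 matched genes were below whole brain in every TRAP control replicate, against 38.9% of all genes. Their median log2 ratio was −2.77, beside −0.37 over all genes. The ratio of *y* is set by its listed zeros and the prior count, and *b* is a gene whose counts differed between tables.

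Genes of the other monoamines did not pass in any comparison (0 of 8 tested by edgeR in each). *SerT*, the serotonin transporter, was above whole brain in every TRAP control replicate, at a log2 ratio averaging 0.97 ± 0.08 (SD, n = 3), and *Hdc*, the histamine enzyme, with 0.64 ± 0.38 (SD, n = 3). Of the 8 genes these 2 were above and 4 below in every replicate (*Trhn*, *Tbh*, *prt* and *amd*), against 31.1% and 38.9% of all genes. *Trhn* is counted as below in part through listed zeros. The median log2 ratio of the 8 was −0.63, with listed zeros of *Trhn* and *Tdc2* included. *Trhn*, the neuronal tryptophan hydroxylase, had counts of 52, 0 and 0 in TRAP control. *prt*, a vesicular transporter related to *Vmat*, averaged 0.982 ± 0.582 CPM in TRAP control, 3.95 ± 1.95 CPM in PARIS C571A, and for PARIS WT 3.79 ± 1.67 CPM (SD, n = 3 each, edgeR adjusted p = 0.498 and 0.43 against TRAP control). *amd*, a neighbour of *Ddc* that resembles it, held between 49 and 188 counts in the TRAP libraries.

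**Figure D5:**
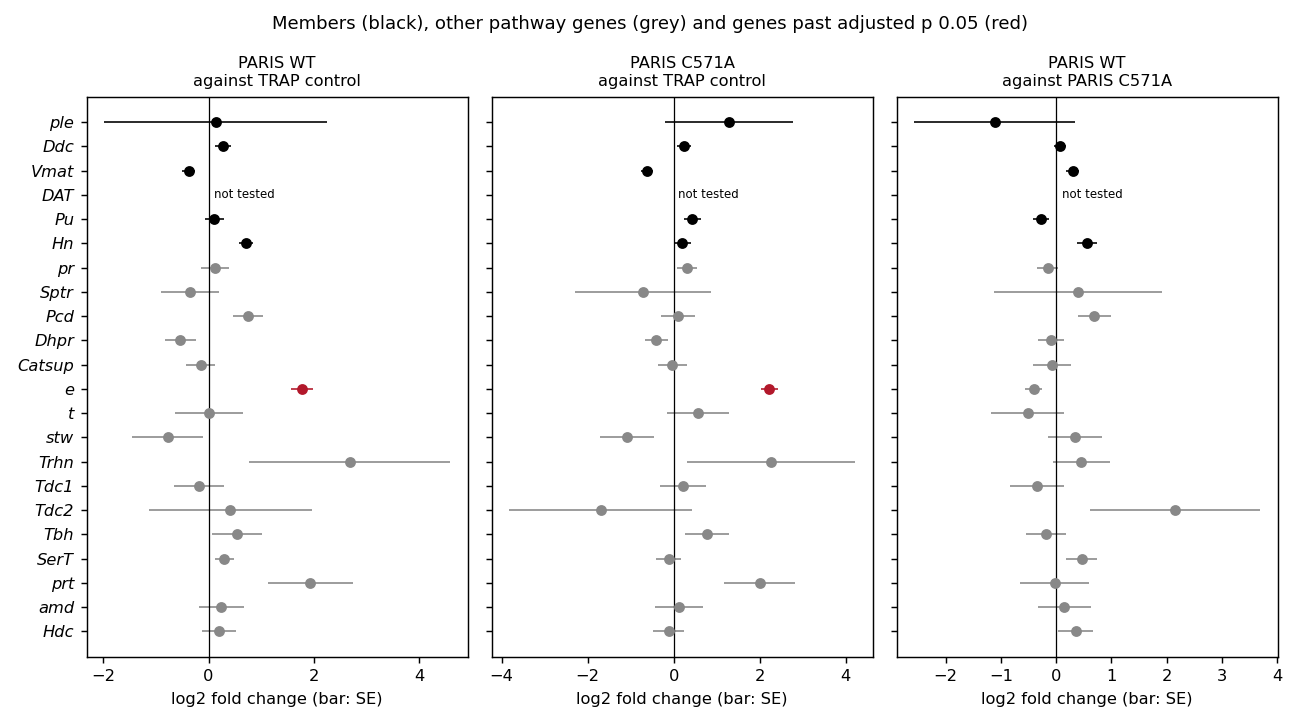
Log2 fold change with its SE from edgeR for the 6 genes (black), for other genes of the pathway (grey) and for genes past an adjusted p-value of 0.05 (red), in the 3 comparisons. *e* is the red gene in both comparisons with TRAP control, *b* is left out because it is listed at 0 in all PARIS libraries of this table, and *DAT* was not tested.

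Likeness over the 9 TRAP libraries was measured by Pearson's r of log2 CPM over 10524 genes, as a description of libraries that share depth and groups. Among the members themselves, *Vmat* and *Pu* had an r of −0.76, *Ddc* and *Hn* one of 0.46, and *ple* had one of at most 0.33 with another member. The genes most like *Vmat* were *CG9512* (r = 0.97) and *Crag* (r = 0.95), and those most like *Hn* were *RpL5* and *Idh3g* (r = 0.96 each). Those most like *Ddc* were *CG6833* and *CG8607* (r = 0.94 each), and those most like *Pu* were *Sf3a1* and *Mst85C* (r = 0.96 each). For *ple* they were *CG12054* and *CG8204* (r = 0.99 each), where the 2 libraries at 0 set most of the pattern. *DAT* had too few libraries with counts for this measure. These are the highest values out of 10524 genes, over 9 points.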

How the data were processed

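Per the paper's methods, the authors aligned reads to the BDGP6.28 fly genome using HISAT2 2.1.0, ran StringTie 2.0 with its correction for multi-mapped reads on, and made gene counts with its prepDE script, from unstranded libraries (TruSeq RNA v2 kit). In the deposited tables the estimated counts are already whole and not normalized, so they were used unrounded. Symbols, positions and exon lengths came from Ensembl's BDGP6.54 annotation, on the same assembly. The 87 assembled entries that name no gene, which held up to 0.0209% of a library, were left out.

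Levels and tests used the table of the 3 groups, with the libraries of the 2 groups compared, and the table of TRAP control and whole brain. Genes were kept by filterByExpr (minimum count 10, minimum total 15), scaled by TMM and tested by edgeR 4.0.16 with its quasi-likelihood test (R 4.3.3), p-values being adjusted by Benjamini-Hochberg over all genes tested and a threshold of 0.05. DESeq2, which the paper used for its gene-level tests (version 1.24.0), was run here in version 1.42.0 as an alternative. SE was taken from the fold change and F statistic, and log2 ratios used a prior count of 1. The test was tried on simulated data. Total counts differ between libraries, and precision is given by the spread of 3 libraries per group. The methods call these biological samples. The members and lists were chosen with earlier results of these data known. The genes named are the members, the fixed pathway lists, neighbours in the genome and, for likeness, the 2 genes with the highest r for each member. Replicate numbers carry no stated pairing.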

Additional observations from a re-analysis of the deposited data

Results flagged for a closer look

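*DAT* had counts in 4 libraries of the table of the 2 PARIS groups that are listed at 0 in the table of the 3 groups on which the comparisons rest. The values were 1198 and 826 in PARIS C571A replicates 1 and 2 and 1241 and 718 in PARIS WT replicates 1 and 2. *b* was listed at 0 in all 6 PARIS libraries of the table of the 3 groups and had 1968, 1420 and 2835 counts in PARIS C571A and 716, 638 and 899 in PARIS WT in the other table. These values stood out because they lie far above 3 counts in a table outside the main comparisons. The tables of TRAP control with either PARIS group hold the same zeros as the table of the 3 groups, and which count reflects the reads was not tested.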

How the results depend on the processing

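By edgeR, 0 members were called in each pairwise comparison and over the 3 groups under other size factors, other filters, a robust fit and with each library left out (0 to 0). The pairwise comparisons also had 0 with all libraries in 1 fit, with the table of the 2 groups and with totals without rRNA, small RNA and mitochondrial genes, which were not run over the 3 groups. A replicate block also called 0 members. The numbers carry no stated pairing, and deviations of same-numbered libraries had correlations between −0.0369 and 0.0514. DESeq2 called 2 members between PARIS WT and TRAP control (9.33% of all genes) and 1 between PARIS C571A and TRAP control (6.22%). Over the 3 groups it called 2 members, and the share of all genes it called there was not computed. The cause of the difference between the tools was not tested. Against whole brain, 2 members were above it in every replicate, 2 to 3 with a replicate left out and 1 with library sizes only, where *Ddc* fell to −0.11, since this scaling shifts all genes. With each library left out, *ple* in PARIS WT against TRAP control ranged from −0.45 (without TRAP control replicate 2) to 0.81, with −0.19 and −0.37 without PARIS WT replicates 2 and 3, and *Pu* ranged from −0.039 to 0.25, at −0.039 without TRAP control replicate 3. Of 294 values of single genes, 6 had the other sign, namely those above and *ple* against whole brain, a mean of −1.82 with its library at 0 and 1.41 without TRAP control replicate 2. Depth limits genes such as *Trhn* and *prt*, which have few counts in TRAP control.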
